A study of Sus scrofa with 18 samples.

Results

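The Slit, netrin and ephrin guidance genes were followed in whole fetal brain of the pig at gestation day 45 (GD45), GD60 and GD90. They were chosen by name in the gene count table: the SLIT, ROBO, NTN, EPHA, EPHB, EFNA and EFNB genes that carry a number, UNC5A to UNC5D, DCC, NEO1 and DRAXIN. The rule found 39 genes among 31908 in the table, 15 for ligands and 24 for receptors, and all 39 were among the 16325 genes with enough counts to test. RNA was sequenced from 18 brains, 3 from female and 3 from male fetuses at each day, so that development could be compared within each sex and the sexes within each day. The dams were untreated Landrace x Large White gilts inseminated with LR-M6 semen, GD1 being the day of insemination, and no genotype or treatment differed between the groups. Fetuses came from 3 litter sizes a day, each with 1 female and 1 male. The labels give the litter size but not the dam, so a litter is inferred only from a size that both sexes share. Gene counts per library ran from 15118843 to 19729783, and 3 counts in a library corresponded to 0.152 to 0.198 CPM (read counts scaled to a common library size), a limit that covers counting error only.

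Growing axons are steered by ligands that attract or repel the growth cone. Slits repel axons through Robo receptors, for example after an axon has crossed the midline. Netrins act through DCC and neogenin (NEO1) as attractants and through UNC5 receptors as repellents, and draxin is a secreted repellent that binds DCC and netrin. Ephrins are bound to the membrane, ephrin-A by a lipid anchor and ephrin-B by a transmembrane segment. They signal at cell contacts to Eph receptor tyrosine kinases, and the ephrin-B tail also signals back into its own cell. Members of these families are used in the fetal brain for axon tracts, maps, cell sorting and cell migration.

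All 3 ephrin-B genes had negative log2 changes from GD60 to GD90 in both sexes, and no test compared their courses. They are shown first because the 3 ligands share a tail that signals into the cell. These are the last 60 coding bases, stop codon included, read from the Sscrofa11.1 genome with RefSeq gene models: chrX:54959832-54959891 on the plus strand for EFNB1, chr11:74188337-74188396 on the minus strand for EFNB2 and chr12:52974370-52974429 on the plus strand for EFNB3. Capitals mark the bases that are the same in all 3 genes.
EFNB1: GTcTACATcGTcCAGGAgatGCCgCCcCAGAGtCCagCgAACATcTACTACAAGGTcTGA
EFNB2: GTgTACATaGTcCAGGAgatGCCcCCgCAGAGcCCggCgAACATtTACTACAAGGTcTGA
EFNB3: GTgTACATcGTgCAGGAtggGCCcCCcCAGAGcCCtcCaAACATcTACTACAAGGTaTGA
Of the 60 bases, 46 were the same in all 3 genes. EFNB1 and EFNB2 shared 53 bases, while EFNB3 shared 49 with each. This stretch therefore separates the 3 genes by few bases.

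For the genes called in both sexes between GD60 and GD90 whose RefSeq start lay within 100 bases of the deposited gene start, the 250 bases before the start are printed, since these genes fell together. They are EFNA4 at chr4:94735579-94735828 (minus strand), EPHA3 at chr13:166942792-166943041 (minus strand), EPHB2 at chr6:80648848-80649097 (plus strand), UNC5A at chr2:81126192-81126441 (minus strand), all in Sscrofa11.1 from RefSeq, written 5′ to 3′ along the gene, and no annotated exon lay in any of the 4 windows. Capitals mark 4 common promoter motifs searched on both strands: the CCAAT box, the GC box GGGCGG, the TATA box TATAAA and the E-box CACGTG. A match on the opposite strand shows as the reverse complement.
EFNA4: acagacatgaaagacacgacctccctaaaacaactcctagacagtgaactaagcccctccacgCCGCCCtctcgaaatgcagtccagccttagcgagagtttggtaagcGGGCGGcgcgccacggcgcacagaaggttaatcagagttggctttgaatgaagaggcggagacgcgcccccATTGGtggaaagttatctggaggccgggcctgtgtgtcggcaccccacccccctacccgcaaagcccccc
EPHA3: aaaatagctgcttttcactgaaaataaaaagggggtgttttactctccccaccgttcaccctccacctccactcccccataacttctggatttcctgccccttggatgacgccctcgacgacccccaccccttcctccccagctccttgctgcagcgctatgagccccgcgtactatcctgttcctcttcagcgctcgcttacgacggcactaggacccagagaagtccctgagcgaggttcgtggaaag
EPHB2: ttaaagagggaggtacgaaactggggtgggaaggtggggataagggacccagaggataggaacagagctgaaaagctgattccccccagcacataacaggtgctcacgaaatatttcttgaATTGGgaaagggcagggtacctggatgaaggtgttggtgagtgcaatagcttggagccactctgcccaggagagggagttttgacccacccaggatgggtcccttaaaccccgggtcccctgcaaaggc
UNC5A: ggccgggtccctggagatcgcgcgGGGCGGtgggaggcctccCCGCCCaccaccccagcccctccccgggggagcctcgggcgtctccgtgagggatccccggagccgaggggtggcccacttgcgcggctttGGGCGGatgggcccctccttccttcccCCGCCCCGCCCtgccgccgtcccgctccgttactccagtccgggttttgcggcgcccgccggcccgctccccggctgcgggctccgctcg
The windows of EFNA4 and UNC5A held a GC box, those of EFNA4 and EPHB2 a CCAAT box, and that of EPHA3 none of the 4. Among 19556 windows of the same length over protein-coding genes, 31.9% held CCAAT, 45.9% GGGCGG, 9.77% TATAAA and 6.39% CACGTG. Among the windows of the 39 guidance genes the counts were 17, 19, 7 and 1, and only 14 of the 39 RefSeq starts lay within 100 bases of the deposited start. No motif was shared by all 4 genes.

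One library stood apart. Male GD45 replicate 17 came from a litter size of 8 whose 2 brains had labelled weights of 0.7135 and, for female GD45 replicate 18, 0.6653, against 1.55 to 1.86 for the other GD45 fetuses in the same labelled unit. In it, 19 of the 39 genes lay more than 0.5 on the log2 scale from their group mean, against 0 to 10 in the other 17 libraries. It also had the steepest loss of long genes: the slope of log2 expression on log2 gene length was -0.188, against -0.0717 to 0.118 elsewhere. Its summed erythroid markers were at 774 CPM against 243 to 356 CPM in the other GD45 libraries, its choroid plexus markers at 1810 against 916 to 1370 CPM and its progenitor markers at 1880 against 1350 to 1500 CPM, and their part in the results was not tested. The highest slopes, 0.0768 to 0.118, were those of the 3 male GD90 libraries, so gene length moved with a group as well. The counts of called genes between adjacent days and for the interaction are therefore also given without replicate 17, a library singled out after seeing the data.

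The tissue itself changed between the days. Summed levels of 9 oligodendrocyte markers ran from 147 to 220 CPM at GD45, from 262 to 313 CPM at GD60 and from 2150 to 3550 CPM at GD90. Those of 7 neural progenitor markers ran from 1350 to 1880, 840 to 1000 and 469 to 621 CPM, and those of 7 astrocyte markers from 221 to 384, 462 to 595 and 1660 to 2160 CPM. All 10 neuron markers were detected in every library, and their summed level ran from 2740 to 3640, 3900 to 5510 and 6050 to 6700 CPM. HOX genes, which mark hindbrain and spinal cord, summed to between 8.98 and 104 CPM in the female GD45 libraries, to at most 27.1 CPM in the male GD45 libraries and to at most 3.83 CPM at later days. The part of these shifts in the guidance genes was not tested, and in whole brain fewer cells of a type and less RNA per cell cannot be told apart.

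Per kilobase of gene model, the ligands spanned a wide range. The levels per length of ligands and receptors use all reads of the gene table. The separate table of counts per exon (the exon table) held from 16.5% (UNC5D) to 100% (EPHB6) of a gene's reads. The mean over the 18 libraries was 46 CPM per kb for DRAXIN, 41 for EFNB3, 30.7 for SLIT1, 30.5 for EFNA2 and 25.1 for EFNB2, the 5 highest of the 15 ligands on this scale. EFNA3, an ephrin-A gene that the naming rule missed because the count table gives it no symbol, had a mean of 38.3 CPM per kb and would stand between EFNB3 and SLIT1. EFNB1 (10.8), EFNA1 (8.68), SLIT2 (6.12), EFNA4 (5.9), EFNA5 (5.37), NTN3 (4.97), SLIT3 (4.24), NTN4 (3.29) and NTN1 (2.5 CPM per kb) followed, and NTN5 was lowest at 0.549 CPM per kb. NTN1 encodes netrin-1, the classical midline attractant, and its mean level in whole brain was below that of draxin.

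Among receptors, the neogenin gene NEO1 was highest at 35.5 CPM per kb. EPHB2 (25), EPHA5 (23.5), UNC5A (17), ROBO2 (15.1), EPHA4 (14.4), ROBO1 (12.7), EPHB1 (11.9) and EPHA7 (10.6 CPM per kb) came next. Between 9.69 and 1.54 CPM per kb lay EPHA3, UNC5C, EPHB3, EPHA10, DCC, ROBO3, EPHA8, UNC5B, EPHB4, ROBO4, UNC5D and EPHA2, in that order. ROBO4, the Robo receptor known from blood vessels, stood at 2.02 CPM per kb. The lowest were EPHA6 (0.365), EPHA1 (0.262) and EPHB6 (0.105 CPM per kb), the last an Eph receptor without kinase activity.

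Within families the make-up changed with the day. On the same scale, EFNB1 made up 20.3% ± 4.88 of ephrin-B expression at GD45, 12.3% ± 2.02 at GD60 and 6.83% ± 0.924 at GD90 (SD, n = 6 libraries a day), while EFNB3 went from 48.6% ± 8.89 to 54% ± 8.6 and 61.9% ± 8.11. EFNB2 stayed between 31.1% and 33.7% on average. The exon table held 22.3% of the reads of EFNB1, 94.1% of those of EFNB2 and 99.9% of those of EFNB3. The EFNB1 share therefore rests mostly on reads outside it. Of the 4 ephrin-A genes chosen by name, which leave out EFNA3, EFNA4 went from 16.9% ± 2.9 to 10.5% ± 1.42 and 4.1% ± 1.38, and EFNA5, the ligand best known from retinotopic maps, from 7.65% ± 1.73 to 8.87% ± 1.25 and 19% ± 5.03. The 6 libraries of GD90 did not overlap those of GD60 in any of these shares but those of EFNB2 and EFNB3. EFNA2 held 57.7%, 65.6% and 58.5% of these 4 genes. With EFNA3 counted in, a choice made after seeing the data, EFNA3 itself held 38.1%, 44.6% and 48.5% of ephrin-A expression and EFNA2 35.6%, 36.4% and 30.2%. EFNA4 then went from 10.5% to 5.82% and 2.11% and EFNA5 from 4.72% to 4.94% and 9.82%, again without overlap between GD60 and GD90.

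Among EphA receptors, EPHA5 was first at GD45 with 40.6% ± 2.19 and EPHA4 first at GD90 with 31.8% ± 4.98, up from 12% ± 3.54 at GD45. EPHA3 held 17.1% and 17.2% at the first 2 days and 7.1% ± 0.701 at GD90. In the Robo family, ROBO1 led at GD45 with 42.4% ± 2.99 and ROBO2 at GD90 with 50.9% ± 1.52. The exon table held 17.5% of the reads of ROBO1, 51.2% of those of ROBO2 and 30.5% of those of ROBO3, so the shares of ROBO1 and ROBO3 rest mostly on reads outside it. It held 18.4% of the reads of EPHA3, so the EPHA3 share has the same limit. DCC went from 10.7% ± 2.01 of the netrin receptors to 5.35% ± 1.06 and 3.9% ± 0.542, and UNC5B from 2.7% ± 1.09 to 3.39% ± 0.8 and 7.57% ± 1.94. Summed over a family, ephrin-B went from 93.8 ± 11.5 CPM per kb at GD45 to 81.4 ± 4.39 at GD60 and 55.5 ± 2.37 at GD90, while Slit went from 32.4 ± 2.86 to 42.4 ± 4.59 and 48.2 ± 8.43. These shares are given without a test.

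**Figure D1:**
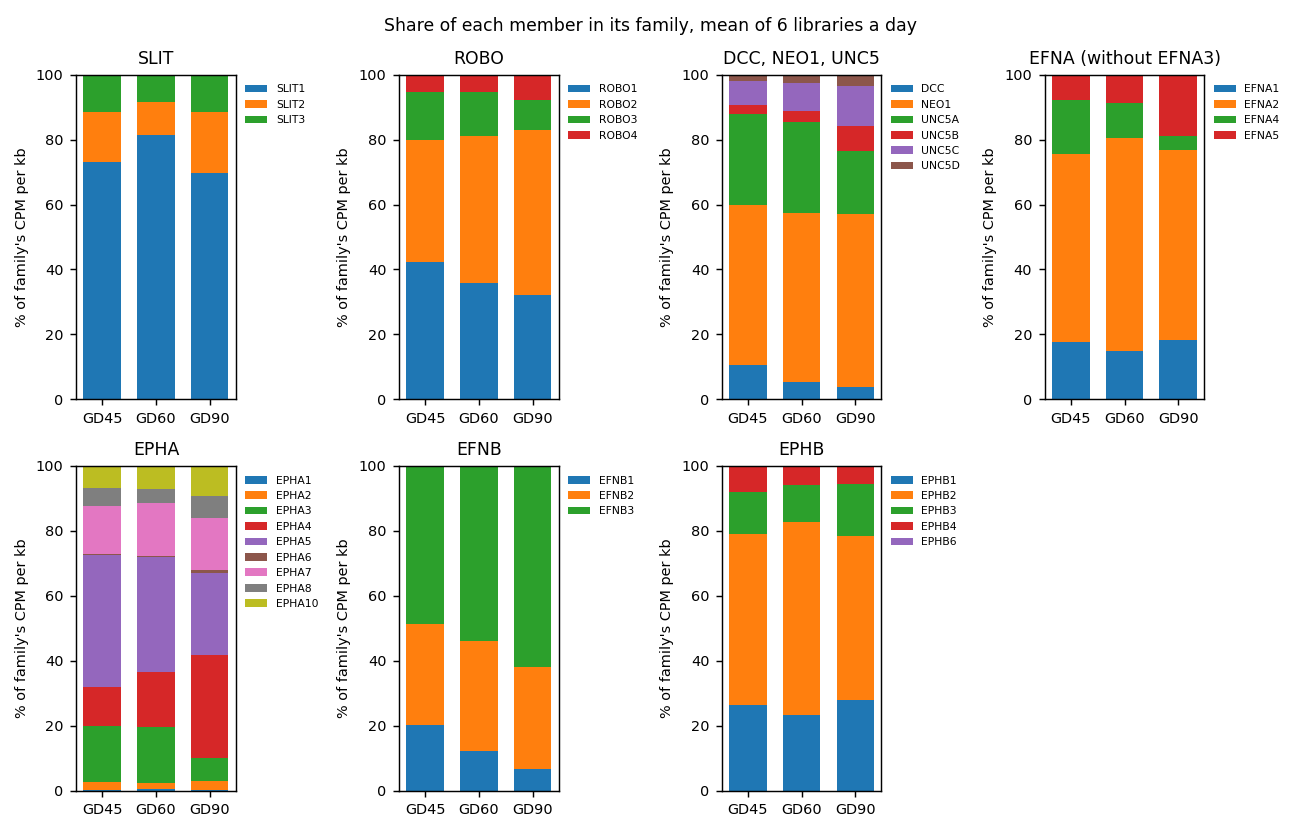
Share of each gene in the summed expression of its family (% of CPM per kilobase, mean of the 6 libraries a day, stacked bars) at GD45, GD60 and GD90. EFNB1 narrows from 20.3% to 6.83% of ephrin-B and EFNA4 from 16.9% to 4.1% of the 4 ephrin-A genes plotted, which leave out EFNA3 (10.5% to 2.11% with it), while EPHA4 widens from 12% to 31.8% of EphA. The exon table held 22.3% of the reads of EFNB1, so its share rests mostly on reads outside that table.

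Between GD45 and GD60 few guidance genes changed. A gene is called here when edgeR's quasi-likelihood test gave an adjusted p below 0.05 (Benjamini-Hochberg over all 16325 genes). In females 1 of 39 was higher at GD60 (background, 4.34% of all genes) and 1 lower (background 2.88%). In males 1 was higher (background 3.08%) and 3 were lower (background 2.53%). The genes were EFNB1, lower in both sexes, SLIT1, higher in females, DCC and EFNA4, lower in males, and EPHB6, higher in males. The shares were below the background in females and near it for the higher genes in males, while the 3 lower genes in males were 7.69% of the 39. Without male GD45 replicate 17, the counts were 7 higher and 4 lower in females (28.2% against a background of 14%) and 1 higher and 4 lower in males (12.8% against 9.32%).

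EFNB1, on the X chromosome (chrX:54948342-54973629, plus strand), encodes ephrin-B1, which marks cell boundaries and neural progenitors. In females it read 116, 119 and 126 CPM at GD45, 46.9, 61.5 and 71.3 CPM at GD60 and 26.6, 26.5 and 21.8 CPM at GD90. In males it read 112, 124 and 150 CPM at GD45, 79, 69.3 and 72.9 CPM at GD60 and 30.3, 22.1 and 24.3 CPM at GD90. No library of a later day reached the lowest of the day before in either sex. From GD45 to GD60 the log2 fold change was -1.01 ± 0.16 (SE) in females and -0.8 ± 0.16 in males (edgeR adjusted p = 0.00121 and 0.00569), and from GD60 to GD90 it was -1.26 ± 0.16 and -1.53 ± 0.16. Summing the exon table in place of the gene table, which kept 22.3% of its reads, ended the GD45 to GD60 call in both sexes.

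SLIT1, the Slit ligand with the highest level per length, is a repellent expressed mainly by neurons (chr14:108446003-108624305, minus strand). It stood at 125, 160 and 165 CPM at GD45, 208, 262 and 238 CPM at GD60 and 162, 236 and 179 CPM at GD90 in females. In males it stood at 160, 173 and 161 CPM at GD45, 249, 204 and 211 CPM at GD60 and 243, 255 and 268 CPM at GD90. At GD60 all libraries of both sexes lay above those of the same sex at GD45, with a log2 change of 0.65 ± 0.15 in females (edgeR adjusted p = 0.012) and 0.43 ± 0.15 in males (0.106). Without female GD45 replicate 12 or female GD60 replicate 3 the female call was lost, with adjusted p up to 0.0691.

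DCC, the netrin receptor for attraction, went from 58.1, 68.2 and 61.9 CPM in GD45 males to 33.6, 36.5 and 35.8 CPM at GD60, with no overlap. The log2 change of -0.83 ± 0.23 had an edgeR adjusted p of 0.0422, and 12 of 30 alternatives lost the call. EFNA4 had a like margin (-1.08 ± 0.29, adjusted p = 0.038) and lost it in 11 of 30, among them the fit without male GD45 replicate 17, where its level was 22.2 CPM against 9.75 and 12.4 CPM in the other GD45 males. EPHB6 was read 1, 2 and 4 times in the GD45 males and 28, 10 and 21 times at GD60. The ratio of the summed counts was 8.1 (95% exact interval 3.7 to 21, counting error only), against 2.48 (1.32 to 4.88) in females.

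From GD60 to GD90 the guidance genes fell more often than they rose in females. Of 39, 1 was higher at GD90 (background 13.7%) and 13 were lower (33.3% against a background of 13.4%). In males 9 were higher (23.1% against 18.5%) and 10 lower (25.6% against 16%). The median log2 fold change was -0.33 in females and 0.14 in males, beside -0.02 and 0.01 over all genes. In both sexes 8 genes were lower, EFNA4, EPHA3, EFNB1, ROBO3, UNC5A, EFNA2, EPHB2 and DRAXIN, and 1 was higher, SLIT3. Another 5 were called in females alone and 10 in males alone, which does not show that the sexes differ, and none moved in opposite directions with both calls. Without male GD45 replicate 17 there were 4 higher and 17 lower in females (53.8% against 35.9%) and 10 higher and 11 lower in males (53.8% against 44.3%).

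Over the whole interval from GD45 to GD90, 3 genes were higher (background 20%) and 13 lower (background 18.9%) in females, and 11 were higher (background 23.4%) and 12 lower (background 24.3%) in males. EPHB6, SLIT3 and UNC5B were higher in both sexes. The comparisons of adjacent days share the GD60 libraries, so their changes are not independent. By role, 1 of 15 ligands rose and 5 fell from GD60 to GD90 in females, and 0 of 24 receptors rose and 8 fell, beside 13.7% and 13.4% of all genes. In males 3 ligands rose and 5 fell, and 6 receptors rose and 5 fell, beside 18.5% and 16%.

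**Figure D2:**
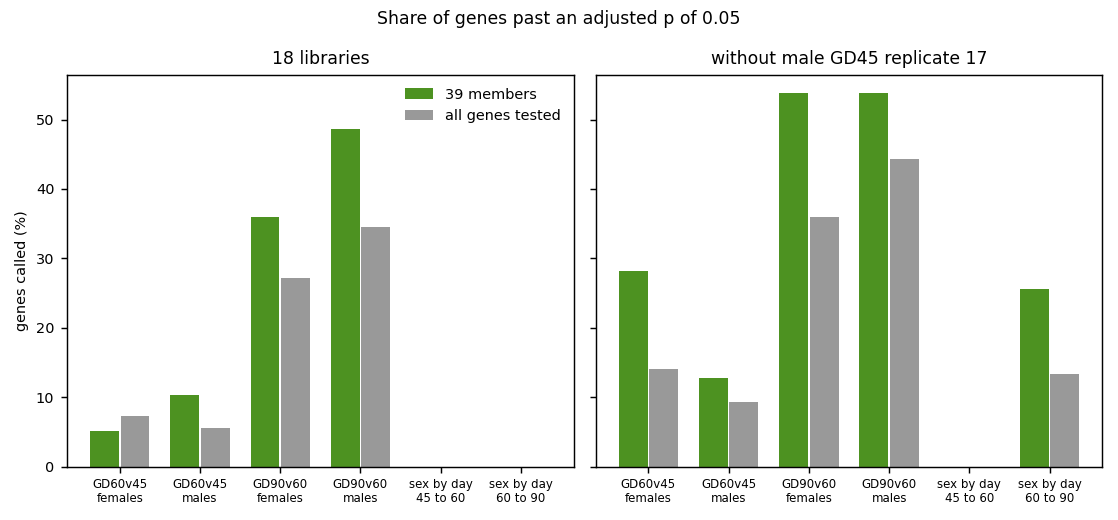
Percentage of the 39 guidance genes (green) and of all genes tested (grey) past an adjusted p of 0.05 in each comparison, with all 18 libraries (left) and without male GD45 replicate 17 (right). In males 48.7% of the guidance genes were called between GD60 and GD90, beside 34.5% of all genes, and the sex-by-day interaction reached 25.6% beside 13.3% only without that library.

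**Figure D3:**
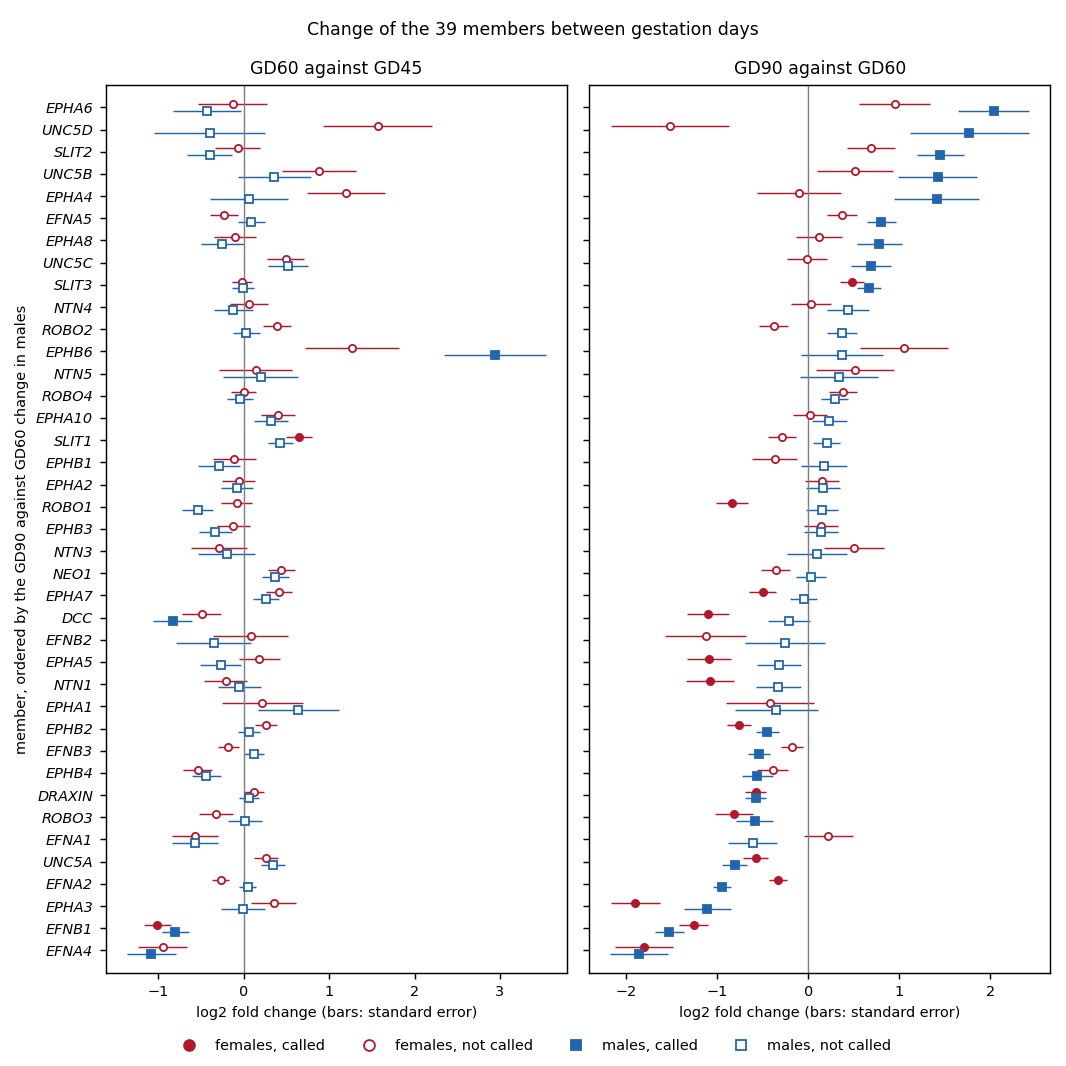
Log2 fold change of each guidance gene (rows) from GD45 to GD60 (left) and from GD60 to GD90 (right) in females (red circles) and males (blue squares), with standard errors as bars and filled symbols for adjusted p below 0.05. On the right EFNA4 lies at -1.81 in females and -1.86 in males, EPHA3 is lowest in females at -1.9, and UNC5D lies at -1.52 in females and 1.77 in males.

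EFNA4 encodes an ephrin-A ligand, also known from cranial sutures (chr4:94730792-94735559, minus strand). It read 11.6, 12.2 and 13.9 CPM at GD45, 6.01, 5.57 and 7.97 CPM at GD60 and 2.28, 1.39 and 1.85 CPM at GD90 in females. In males it read 9.75, 12.4 and 22.2 CPM at GD45, 7.75, 5.94 and 7.23 CPM at GD60 and 2.64, 1.9 and 1.17 CPM at GD90. Each GD90 library lay below every GD60 library, with a log2 change of -1.81 ± 0.32 in females and -1.86 ± 0.32 in males (edgeR adjusted p = 0.000521 and 0.00037). The call held in all 30 alternatives in both sexes.

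EFNA2, the highest per length of the 4 ephrin-A genes chosen by name, lies at chr2:77165189-77179058 on the minus strand. Its levels were 70.2, 77.9 and 67.8 CPM at GD45, 57.6, 60.3 and 61.2 CPM at GD60 and 48.1, 44.3 and 50.1 CPM at GD90 in females. The male levels were 69.4, 65.9 and 77 CPM at GD45, 73.7, 72.9 and 72.7 CPM at GD60 and 37.1, 35 and 41.6 CPM at GD90. The 3 GD90 libraries lay below the 3 GD60 libraries in each sex. The fall was -0.33 ± 0.1 in females and -0.95 ± 0.1 in males in log2 units (edgeR adjusted p = 0.0263 and 6.95e-06), and the female call was lost in 6 of 30 alternatives, with adjusted p up to 0.114.

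DRAXIN, the secreted repellent of commissural tracts (chr6:71786435-71814680, plus strand), fell between GD60 and GD90. Females had 317, 302 and 271 CPM at GD45, 312, 339 and 315 CPM at GD60 and 226, 221 and 199 CPM at GD90. Males had 287, 348 and 360 CPM at GD45, 406, 305 and 329 CPM at GD60 and 250, 224 and 222 CPM at GD90. The groups of GD60 and GD90 did not overlap. The log2 change was -0.58 ± 0.12 in each sex (edgeR adjusted p = 0.00223 in females and 0.00207 in males).

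EFNB3, which encodes the ephrin-B3 midline barrier to corticospinal axons, had the highest level per length of the ephrin-B genes (chr12:52970484-52976261, plus strand). Female levels were 145, 140 and 126 CPM at GD45, 148, 108 and 106 CPM at GD60 and 106, 102 and 113 CPM at GD90. Male levels were 121, 110 and 126 CPM at GD45, 128, 133 and 126 CPM at GD60 and 87.9, 90 and 88.7 CPM at GD90. In males the GD90 libraries lay wholly below those of GD60, with a log2 change of -0.54 ± 0.12 (edgeR adjusted p = 0.00304), while in females it was -0.18 ± 0.12 (0.298). The ephrin-B genes with nearly the same tail gave these values side by side: EFNB1 fell in both sexes, and EFNB2 had -1.13 ± 0.45 in females and -0.26 ± 0.44 in males, neither called over the 18 libraries. Without male GD45 replicate 17, EFNB2 was called lower in females (-1.13 ± 0.27, edgeR adjusted p = 0.0036) and not in males (-0.26 ± 0.27, 0.451). Summing the female and male of a litter size also gave a call (-0.66 ± 0.21, edgeR adjusted p = 0.0297).

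Of the Slits, SLIT3 was called higher at GD90 in both sexes, SLIT2 in males, and SLIT1 in neither (-0.29 ± 0.15 in females and 0.2 ± 0.15 in males). SLIT3 (chr16:54553933-55220310, plus strand), also named because it alone was called higher in both sexes, had 25.7, 30 and 26.3 CPM in GD60 females and 32.8, 42.1 and 39.6 CPM at GD90. In males it had 29.4, 25.5 and 24.8 CPM and then 44.2, 43.8 and 38.8 CPM. The days did not overlap in either sex, and the change was 0.48 ± 0.13 in females and 0.67 ± 0.13 in males (edgeR adjusted p = 0.00888 and 0.000746), called in all 30 alternatives. SLIT2, a repellent for many forebrain axons, had 24.8, 42.2 and 24.6 CPM in GD60 males and 77.6, 88.1 and 84.4 CPM at GD90, a change of 1.45 ± 0.26 (0.000537). In females SLIT2 had 0.69 ± 0.26 (0.0562), a call gained (0.0178) without male GD45 replicate 17. SLIT3 was named after its values were seen.

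Of the netrins, none was called in males. NTN1 fell in females, from 18.4, 31.6 and 31.6 CPM to 11.6, 15.3 and 11.7 CPM without overlap (log2 change -1.08 ± 0.26, edgeR adjusted p = 0.00482), and in males the value was -0.33 ± 0.25 (0.317). NTN3, the netrin with the highest level per length (chr3:39572531-39574971, minus strand), had 9.38, 9.28 and 6.96 CPM at GD45, 5.12, 8.56 and 7.28 CPM at GD60 and 13.1, 11.3 and 5.29 CPM at GD90 in females. Male levels of NTN3 were 7.33, 7.71 and 13.4 CPM at GD45, 11, 5.42 and 8.19 CPM at GD60 and 8.46, 7.74 and 10.1 CPM at GD90. Its days overlapped in both sexes, and no comparison of NTN3, NTN4 or NTN5 was called. EFNA5 rose in males, from 14.2, 16.1 and 14.8 CPM at GD60 to 23.7, 26.1 and 28.8 CPM at GD90 (0.8 ± 0.16, adjusted p = 0.00135), and EFNA1 was not called in either sex (0.22 ± 0.27 and -0.61 ± 0.27).

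**Figure D4:**
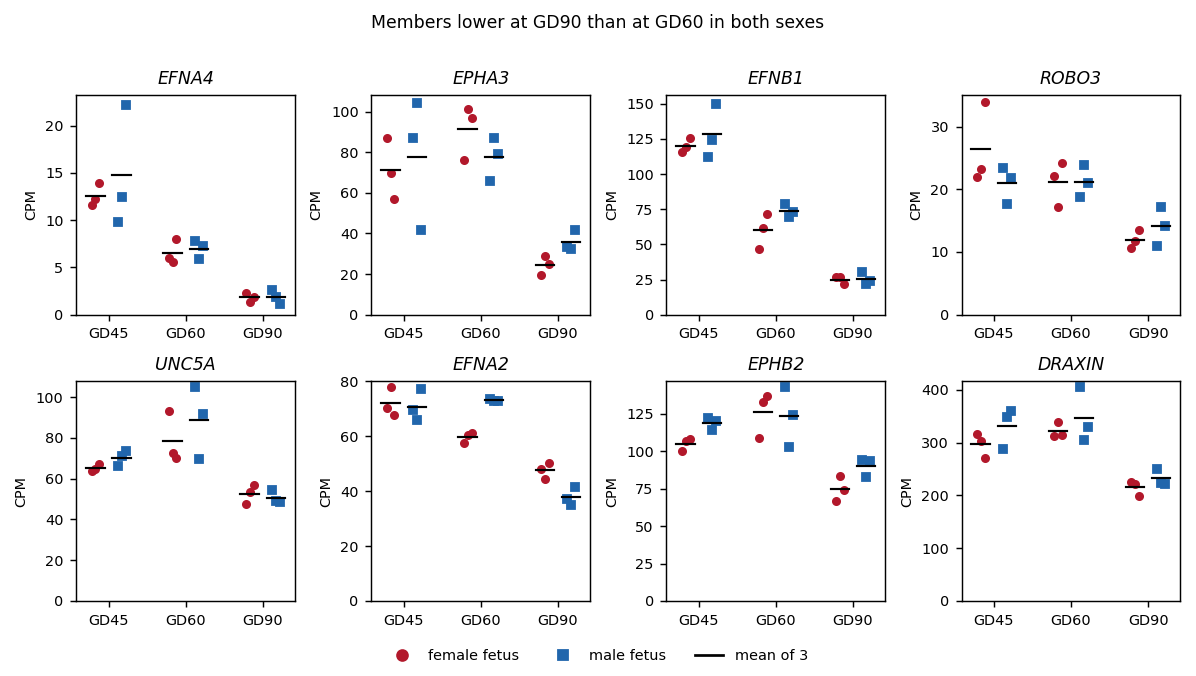
CPM of the 8 genes called lower at GD90 than at GD60 in both sexes, by day, with each female (red circles) and male fetus (blue squares) as a point and black lines for the mean of 3. In every panel the GD90 points of a sex lie below the GD60 points of that sex, for example 1.17 to 2.64 CPM against 5.57 to 7.97 CPM for EFNA4.

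Receptors that fell in both sexes included EPHA3, a receptor for ephrin-A5 found on growing axons (chr13:166591686-166942767, minus strand). It read 87, 69.7 and 57.1 CPM at GD45, 76.1, 101 and 96.6 CPM at GD60 and 19.7, 28.7 and 24.8 CPM at GD90 in females. In males it read 87.2, 104 and 41.5 CPM at GD45, 65.9, 86.9 and 79.3 CPM at GD60 and 33.4, 32.3 and 41.9 CPM at GD90. GD90 lay below GD60 throughout, by -1.9 ± 0.27 in females and -1.11 ± 0.26 in males (edgeR adjusted p = 6.66e-05 and 0.00394). The male value rested on the gene table: in the exon table, which kept 18.4% of its reads, it was 0 (adjusted p = 0.998), and in females it was no longer called (0.057).

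EPHB2, the main EphB receptor (chr6:80649143-80843567, plus strand), is known for commissural axons and for synapses. Females had 99.8, 107 and 108 CPM at GD45, 109, 133 and 137 CPM at GD60 and 66.6, 83.3 and 74.2 CPM at GD90. Males had 122, 114 and 120 CPM at GD45, 143, 103 and 124 CPM at GD60 and 94.1, 83 and 93.2 CPM at GD90. The 2 days did not overlap in either sex, with a log2 change of -0.76 ± 0.13 in females and -0.45 ± 0.13 in males (edgeR adjusted p = 0.000377 and 0.0124). Leaving out male GD60 replicate 16 or male GD90 replicate 10 ended the male call, with adjusted p up to 0.0783.

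UNC5A, the netrin receptor for repulsion with the highest level of the UNC5 genes, lies at chr2:81060802-81126196 on the minus strand. Its female levels were 64, 64.9 and 67.4 CPM at GD45, 93, 72.6 and 70 CPM at GD60 and 47.5, 53.5 and 57.1 CPM at GD90. Its male levels were 66, 71.2 and 73.5 CPM at GD45, 105, 69.7 and 91.9 CPM at GD60 and 54.2, 49.2 and 48.7 CPM at GD90. Again all GD90 libraries lay below all GD60 libraries of the same sex. The log2 change was -0.58 ± 0.14 in females and -0.81 ± 0.14 in males (edgeR adjusted p = 0.00662 and 0.000508), held in all 30 alternatives.

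ROBO3, which lets commissural axons approach the midline before crossing, lies at chr9:52065581-52081629 on the plus strand. It stood at 21.9, 23.3 and 33.9 CPM at GD45, 22.1, 17.2 and 24.2 CPM at GD60 and 10.7, 11.7 and 13.5 CPM at GD90 in females. The male libraries gave 23.4, 17.6 and 21.8 CPM at GD45, 18.7, 23.9 and 21 CPM at GD60 and 11, 17.2 and 14.2 CPM at GD90. GD60 and GD90 did not overlap in either sex, and the change was -0.82 ± 0.21 in females and -0.59 ± 0.2 in males (edgeR adjusted p = 0.00665 and 0.0349). The female call was lost in the exon table and the male call in 5 of 30 alternatives, without male GD60 replicates 4 or 6 and male GD90 replicates 1 or 8 among them.

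ROBO1, DCC, EPHA5 and EPHA7 were called lower in females and not in males, and no difference between the sexes was called for them over the 18 libraries. ROBO1, the Slit receptor with the largest Robo share at GD45, had 113, 125 and 127 CPM in GD60 females and 63.3, 71.6 and 69.7 CPM at GD90 (-0.84 ± 0.18, edgeR adjusted p = 0.00243), against 0.15 ± 0.18 in males, and the female call was lost in the exon table (0.185). DCC had 25.2, 54 and 49.8 CPM and then 17.1, 24.8 and 18.3 CPM (-1.1 ± 0.23, 0.0021), against -0.21 ± 0.23 in males. EPHA7 changed by -0.5 ± 0.15 in females (0.017), a call lost in 3 of 30 alternatives, and had -0.05 ± 0.15 in males. EPHB4, a receptor known from veins, had -0.56 ± 0.17 in males (0.0186), a call lost in 2 of 30 alternatives, and had -0.39 ± 0.17 in females.

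EPHA5, the EphA gene with the highest level per length, is a receptor of forebrain axon maps (chr8:63285489-63604734, minus strand). Female levels of EPHA5 were 244, 243 and 242 CPM at GD45, 251, 312 and 263 CPM at GD60 and 113, 141 and 133 CPM at GD90. In males they were 300, 363 and 134 CPM at GD45, 222, 246 and 194 CPM at GD60 and 148, 189 and 194 CPM at GD90. The GD90 libraries lay below the GD60 libraries in each sex, by a wide margin in females, while in males the highest GD90 and the lowest GD60 library both rounded to 194 CPM. The change was -1.09 ± 0.24 in females (edgeR adjusted p = 0.00306) and -0.32 ± 0.24 in males (0.316).

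The receptors highest per length in the netrin and Robo families were not called between GD60 and GD90. NEO1 (chr7:60064994-60300562, minus strand), a receptor for netrins and repulsive guidance molecules, had 227, 241 and 204 CPM at GD45, 247, 358 and 305 CPM at GD60 and 223, 259 and 229 CPM at GD90 in females. Male NEO1 levels were 242, 248 and 166 CPM at GD45, 301, 298 and 247 CPM at GD60 and 283, 284 and 296 CPM at GD90. In the female libraries GD90 overlapped the lowest GD60 library, and the values were -0.36 ± 0.16 and 0.03 ± 0.16. From GD45 to GD90 NEO1 was called higher in males (0.4 ± 0.16, edgeR adjusted p = 0.0455). The GD45 side of that call includes male GD45 replicate 17, at 166 CPM against 242 and 248 CPM in the other GD45 males.

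ROBO2 (chr13:177365717-179013542, minus strand), a Slit receptor of forebrain tracts, had 131, 136 and 127 CPM at GD45, 161, 188 and 168 CPM at GD60 and 124, 144 and 129 CPM at GD90 in females. In males it had 152, 151 and 90.2 CPM at GD45, 127, 156 and 118 CPM at GD60 and 158, 181 and 181 CPM at GD90. At GD90 every female library lay below and every male library above those of the same sex at GD60, in males by 158 against 156 CPM at the nearest. The log2 values were -0.38 ± 0.16 in females and 0.37 ± 0.16 in males, neither called (edgeR adjusted p = 0.0959 and 0.0883). The interaction of sex and day was 0.76 ± 0.23 with an adjusted p of 0.189.

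Receptors that rose were called in males. EPHA6 went from 1.09, 1.5 and 1.14 CPM to 3.99, 6.76 and 4.68 CPM in males (2.04 ± 0.39, edgeR adjusted p = 0.000908). Female EPHA6 also rose without overlap, from 0.575 to 1.98 CPM at GD60 to 2.51 to 3.05 CPM at GD90, but was not called. Summing the female and male of a litter size gave 1.57 ± 0.3 for EPHA6 (edgeR adjusted p = 0.00191). EPHA4, a receptor for both ephrin classes, had 50.3, 84.3 and 40.1 CPM in GD60 males and 123, 178 and 165 CPM at GD90 (1.41 ± 0.47, 0.0269), against -0.1 ± 0.46 in females. The male EPHA4 call was lost in 6 of 30 alternatives. Summing the female and male of a litter size was among them (0.65 ± 0.28, edgeR adjusted p = 0.0939). EPHA8 (0.78 ± 0.25), UNC5B (1.42 ± 0.43) and UNC5C (0.69 ± 0.22) were also called in males. Of 30 alternatives, 3 lost the call of EPHA8, 4 that of UNC5B and 5 that of UNC5C. UNC5D, a receptor of upper-layer cortical neurons, had 3.14, 8.6 and 4.06 CPM and then 14.2, 21 and 18.9 CPM in males (1.77 ± 0.65, 0.0432), a call lost in 15 of 30 alternatives, the exon table with 16.5% of its reads among them, and 3.97, 21.8 and 20.7 CPM and then 3.12, 8.82 and 4.23 CPM in females (-1.52 ± 0.65, 0.0924). EPHA1, EPHA2, EPHA10, EPHB1, EPHB3, EPHB6 and ROBO4 were not called in either sex.

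Several of these genes were low in the same libraries. Male GD45 replicate 17 had 1.09 CPM of UNC5D, 14.8 of EPHA4, 25.5 of SLIT2, 2.72 of UNC5B and 26.3 of EFNB2, each the lowest of its group. Female GD60 replicate 15 had 3.97 CPM of UNC5D, 52.9 of EPHA4, 25.4 of SLIT2 and 58.5 of EFNB2, again the lowest of its group. Leaving out male GD60 replicate 16 ended 9 and leaving out male GD60 replicate 6 ended 7 of the 39 calls made over the 2 periods, while leaving out female GD60 replicate 15 ended 0. The male GD90 calls of UNC5B and UNC5C were among those lost without either of these males, with adjusted p up to 0.0743 and 0.123.

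**Figure D5:**
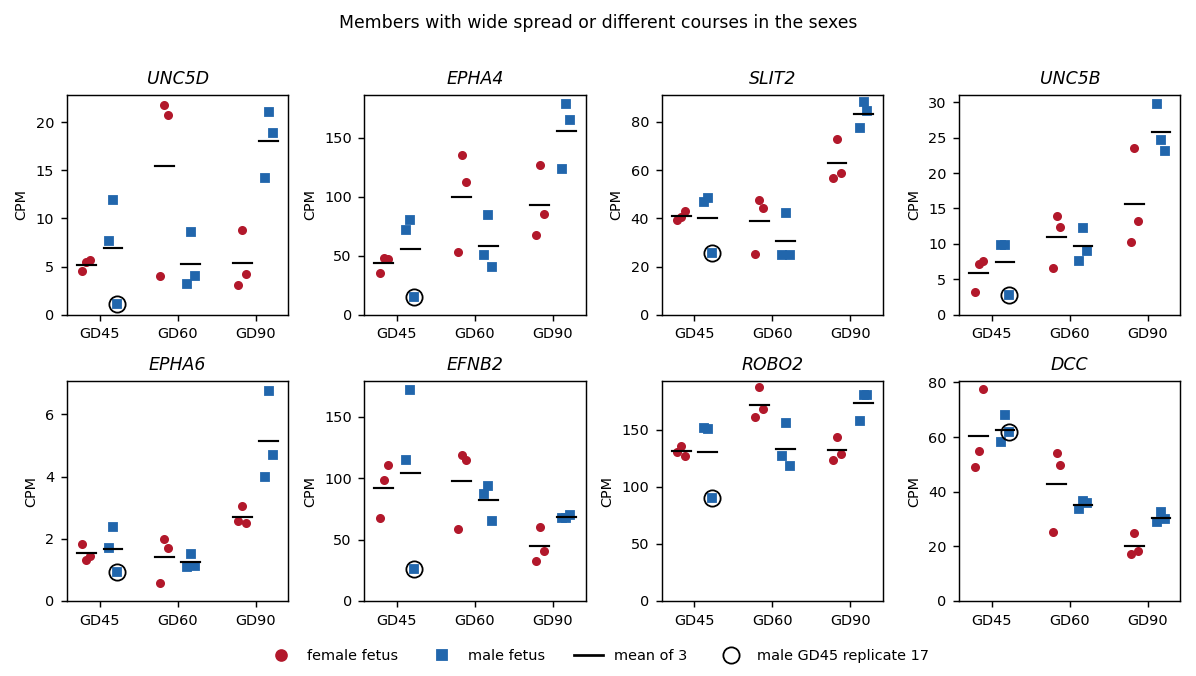
CPM of 8 guidance genes with wide spread or different values in the sexes, by day, with each female (red circles) and male fetus (blue squares) as a point, black lines for the mean of 3, and male GD45 replicate 17 ringed. The ringed library is the lowest at GD45 for all genes shown but DCC, and the GD90 males lie above the GD90 females without overlap in 6 of the 8 panels, all but EPHA4 and UNC5B.

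The third question was whether the sexes differed. No guidance gene was called between males and females at GD45 (background 0.0919%), GD60 (background 0.098%) or GD90 (background 0.098%) in edgeR's quasi-likelihood test. At an unadjusted p below 0.05 the counts were 0, 4 and 12 of 39, beside 423, 784 and 2213 of 16325 genes. At GD90 the males lay wholly above the females for 16 genes (background 17.8%) and wholly below for 3 (background 18%). The median difference, males minus females, was 0.27 on the log2 scale, with 31 of 39 genes above 0, beside a median of 0.01 over all genes. After removing the trend on gene length the median was 0.19, with 26 of 39 above 0.

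At GD90, UNC5D (1.75 ± 0.65), EPHA6 (0.92 ± 0.37), DCC (0.6 ± 0.23), NTN1 (0.6 ± 0.26), ROBO1 (0.53 ± 0.18), SLIT1 (0.41 ± 0.15) and ROBO2 (0.39 ± 0.16) had male libraries wholly above female ones. EFNA1 (-0.6 ± 0.27), EFNA2 (-0.33 ± 0.1) and EFNB3 (-0.27 ± 0.12) had them wholly below. The smallest adjusted p of these was 0.35 in edgeR. The 3 genes on the lower side all encode ephrins, but other ephrin genes lay wholly on the higher side. EFNA5 had 23.7 to 28.8 CPM in GD90 males against 17.7 to 22.3 CPM in females. EFNB2 had 67.4 to 70.1 CPM against 32.4 to 60.4 CPM.

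No guidance gene was called for a change that differed between the sexes, from GD45 to GD60 (background 0%) or from GD60 to GD90 (background 0%). Unadjusted p values below 0.05 numbered 2 and 12 of 39, beside 333 and 3232 of 16325 genes, and DESeq2 called 2 guidance genes in the second period, beside 1.47% of all genes. Without male GD45 replicate 17 the count stayed at 0 for the first period (background 0%) and reached 10 for the second, 25.6% against a background of 13.3%. That library enters neither side of the second contrast. Changes were more positive in males for UNC5D (3.29 ± 0.71), EPHA4 (1.51 ± 0.44), ROBO1 (0.98 ± 0.17), EPHA3 (0.79 ± 0.25), EPHA5 (0.77 ± 0.19), ROBO2 (0.75 ± 0.16), UNC5C (0.7 ± 0.22) and EPHA7 (0.45 ± 0.13), all receptors, and more negative for EFNA1 (-0.83 ± 0.25) and EFNA2 (-0.63 ± 0.13). Their edgeR adjusted p ran from 0.018 to 0.0483. In that fit ROBO2 was called lower in females (-0.38 ± 0.11) and higher in males (0.37 ± 0.11). The receptors named here have gene models of 4747 (UNC5D) to 9652 bases (ROBO2), against 1862 for EFNA1 and 1975 for EFNA2. Over 18 libraries, removing the trend on gene length took the median interaction of the guidance genes from 0.39 to 0.24. The part of gene length in the 10 calls was not tested.

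Exons were tested one by one, and a smaller share of them than of genes was called. From GD60 to GD90, of 349 exons of 38 genes, 0 were higher (background 2.34%) and 11 lower (background 1.29%) in females, and 14 were higher (background 4.79%) and 22 lower (background 3.81%) in males. All 14 exons of EPHB2, all 5 of EFNB1, all 4 of EFNA4, all 4 of EFNA2 and all 3 of ROBO3 had negative values in both sexes. For EPHA3 all 10 exons were negative in females, with a median of -2.24, but 6 of 10 in males, with a median of -0.26. ROBO1 had 12 of 12 exons negative in females and 12 of 12 positive in males, and ROBO2 25 of 26 negative and 25 of 26 positive. These exons share reads with the gene table and are no second measurement.

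Exon usage, the share of a gene's reads on each of its exons, was not called for any of 36 guidance genes with 2 or more exons, in females (background 0.17%) or in males (background 0.0982%), with edgeR's Simes test.

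Genes that act with these ligands and receptors moved in both directions. Of 11 Slit-Robo partners tested, 0 rose and 3 fell from GD60 to GD90 in females, and 2 rose and 2 fell in males. Of 14 netrin and neogenin partners the counts were 1 and 3 in females and 3 and 3 in males, and of 16 ephrin-Eph partners 3 and 3 in females and 4 and 2 in males. Over all genes 27.1% were called in females and 34.5% in males, and nothing is read from these lists beyond their counts. In both sexes the kinase ABL1 fell (-0.79 ± 0.16 in females and -0.67 ± 0.16 in males), as did the kinase SRC (-0.69 ± 0.11 and -0.82 ± 0.11) and DSCAML1, a relative of the netrin receptor DSCAM (-1.17 ± 0.23 and -0.64 ± 0.23). CHN1, the Rac regulator alpha-chimaerin that acts after EPHA4, rose by 1.81 ± 0.15 in each sex, from 49.7 to 79.6 CPM at GD60 to 169 to 232 CPM at GD90. NGEF, which encodes ephexin, a partner of Eph receptors, rose in both periods, by 0.99 ± 0.16 and 0.96 ± 0.16 from GD45 to GD60 and by 1.7 ± 0.16 and 1.26 ± 0.16 from GD60 to GD90. Its libraries held 38.3 to 66.1 CPM at GD45, 84 to 123 CPM at GD60 and 247 to 307 CPM at GD90, without overlap between days.

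A further ephrin-A gene, EFNA3, carries no name in the count table and was matched by its Ensembl ID, so it is not among the 39, although its level per length was above that of EFNA2 in each of the 6 groups. Its levels were 53.6, 50.7 and 54.5 CPM in GD90 males against 94.1, 65.2 and 79.9 CPM at GD60, with no overlap (-0.59 ± 0.12, edgeR adjusted p = 0.0016). In females they were 69, 65.4 and 66 CPM against 67.5, 63.1 and 59.5 CPM (0.08 ± 0.12). The interaction was -0.67 ± 0.17, with an adjusted p of 0.175.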

How the data were processed

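RNA from 18 whole fetal pig brains was sequenced as paired reads. The authors checked reads with FastQC, trimmed them with Trimmomatic, mapped them with HISAT2 to Sscrofa11.1 and counted them with featureCounts, per the labels and the study's methods; the authors deposited raw counts per gene and per exon, with gene lengths. Whether strand was used in counting is not given in the sources used here. The 22 count columns were summed to 18 libraries, since 4 libraries had 2 runs (chi-square per degree of freedom 1.61 to 1.69 between runs, against 7.09 to 10.4 between the closest replicates). The number of count columns left unused in the gene table was 0, and the transcript table was not used. Promoter windows and coding bases were read from RefSeq Sscrofa11.1.

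Counts were tested in R 4.3.3 with edgeR 4.0.16: filterByExpr (minimum count 10, total 15; 16325 genes), TMM scaling and the quasi-likelihood test over 6 groups of sex and day, with Benjamini-Hochberg adjustment and a threshold of 0.05. CPM uses TMM-scaled totals, and CPM per kb divides by the deposited gene length. limma 3.58.1 and DESeq2 1.42.0 served as alternatives, and each library was left out in turn. On simulated data with 200 genes changed, a log2 change of 2 was recovered for 86% from GD60 to GD90 in males (16091 genes, 9 false calls) and for 74% in the interaction of that period (16073 genes, 10 false calls); a log2 change of 1 was recovered for 47% and 15% (16076 and 16071 genes). The female and male of 1 litter size correlated by -0.0932 to 0.424 within a day, in deviations from the group mean. Pairs of unlike litter size were not compared with these, so pairing was not tested. The main fit was unpaired, while the paper describes a paired-sample edgeR analysis. Values in every library are given for genes called in both sexes in a period (up to 8 by mean absolute log2 change) and for the gene with the highest level per length in each of 8 families (genes with a sex or interaction call were also to be named, and there were 0); up to 2 partner genes a list were taken by the same rule. The guidance genes and lists were chosen with earlier results of these data known. Replicates are separate fetuses.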

Additional observations from a re-analysis of the deposited data

Results flagged for a closer look

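In each set of 6 libraries of a day, a level was picked out when its gap to the nearest other library exceeded Dixon's 95% critical value. This held for 10 of 117 sets of gene and day, where chance flags about 1 in 20 groups, or 5.85 sets. Male GD45 replicate 17 was the low extreme for EPHA7 (44.1 CPM), ROBO2 (90.2 CPM), SLIT2 (25.5 CPM) and UNC5C (14.7 CPM). The other 6 were spread over 6 libraries. They were SLIT1 in female GD45 replicate 12 (125 CPM), NTN5 in male GD45 replicate 14 (0.627 CPM), DRAXIN in male GD60 replicate 16 (406 CPM), ROBO4 in male GD60 replicate 6 (10.3 CPM), EPHB4 in female GD60 replicate 15 (12.3 CPM) and EPHA10 in female GD90 replicate 2 (26.7 CPM).

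ROBO2 was lower in every GD90 female than in any GD60 female, and higher in every GD90 male than in any GD60 male. The log2 changes were -0.38 in females and 0.37 in males, neither called over 18 libraries. Different fetuses were read at each day. The interaction term of edgeR's quasi-likelihood test for this difference was 0.76 ± 0.23, with an adjusted p of 0.189 over 18 libraries and 0.0186 without male GD45 replicate 17. That library enters neither side of this contrast and was singled out after seeing the data.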

How the results depend on the processing

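No call changed direction under any alternative run. Of 39 calls over both periods, the likelihood ratio test, DESeq2, voom with sample weights, the CPM filter and removal of the length trend kept all 39, while 31 were kept in the exon table and 36 with unscaled library size. The likelihood ratio test, DESeq2 and voom made more calls than the main fit in comparisons given below. That they kept its calls was therefore a weak check. Litter sums add the female and the male of a litter size, so they have no value for 1 sex; their pooled change was set beside the calls of each sex, and 34 of the 39 were also called in it. They called 6 guidance genes from GD45 to GD60, beside 11.6% of all genes. In females from GD45 to GD60, the 2 calls became 4 with the likelihood ratio test, DESeq2, the length trend removed or both GD60 fetuses of litter size 8 left out, 5 with the 6 libraries compared alone or without both GD45 fetuses of litter size 8, 1 in the exon table, and 1 to 11 when single libraries were left out (11 without male GD45 replicate 17, 5 without female GD60 replicate 15, 1 without female GD45 replicate 12 or female GD60 replicate 3). In males the 4 calls became 0 with the 6 libraries alone and 2 to 5 when single libraries were left out, with 2 without female GD45 replicate 13, male GD60 replicates 4, 6 or 16, female GD90 replicate 9 or male GD90 replicate 10. From GD60 to GD90, leaving out single libraries gave 12 to 21 calls in females and 12 to 21 in males, the male 12 without male GD60 replicate 16. For the interaction from GD60 to GD90, 0 became 2 with the likelihood ratio test or DESeq2 (0.79% and 1.47% of all genes), 10 without both GD45 fetuses of litter size 8 (12.7%), and 0 to 10 when single libraries were left out (10 without male GD45 replicate 17, 1 without female GD60 replicate 15). Between the sexes at GD90, the 6 libraries alone gave 4, beside 6.88% of all genes.

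Voom with sample weights, which gave male GD45 replicate 17 a weight of 0.0968, called 17 and 13 genes from GD45 to GD60 in females and males, 24 from GD60 to GD90 and 27 from GD45 to GD90 in females, 12 and 22 between the sexes at GD60 and GD90, and 16 and 24 for the interactions. Its calls over all genes were 35.9% and 26.5% for the first 2 of these, 55.5% and 56.7% for the next 2, and 20.5% and 45.4% for the interactions. It also called 25.3% and 32.7% of all genes between the sexes at those days, against 0.098% in the edgeR fit. With litter as a replicate block, the sex and interaction counts stayed at 0. The settings that leave out both fetuses of a litter size were added after seeing the data. The cause of these shifts was not tested. In the simulation with 3 fetuses a group, a log2 change of 1 was often not recovered. The simulation changed 200 genes, while 34.5% of all genes were called from GD60 to GD90 in males. The adjustment was therefore stricter in the simulation, and its recovery need not hold for that comparison.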
